A study of Mus musculus with 2 samples.

Results

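Metabotropic glutamate receptors were measured in Cajal-Retzius (CR) cells of the mouse hippocampus at postnatal day 14. In these mice, 1 or both copies of the gene of the transcriptional repressor capicua (CIC) could be deleted by Cre in these cells. The 6 receptor genes *Grm2*, *Grm3*, *Grm4*, *Grm5*, *Grm7* and *Grm8* were taken by symbol from the 32285 genes of the count tables, and all 6 were found. *Grm6*, another gene of the family, is given beside them. Both libraries held dissociated hippocampal cells sorted as DAPI- tdT+ and sequenced from the 3′ end of their transcripts. The control library pooled 4 *ΔNp73-Cre; Cic flox/+; tdT* mice (3 males and 1 female, conditional heterozygous) and the knockout library pooled 4 littermates (2 males and 2 females) of the conditional knockout, which were *ΔNp73-Cre; Cic flox/flox; tdT*. Every mouse carried *ΔNp73-Cre*, which is active in CR progenitors from the embryo on, and the Cre-dependent tdTomato reporter. Control cells could thus also lose 1 copy of *Cic*, and the deletion was not measured here. The study reports that CIC was deleted from most, but not all, hippocampal CR cells of the knockout line. With n = 1 library per genotype, a difference between the genotypes had no replicate check, no significance test across cells was made, and genotype cannot be told apart from library or from the mice that were pooled.

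These receptors are G-protein-coupled receptors for glutamate and fall into 3 groups. Group I, which includes *Grm5*, couples to Gq, activates phospholipase C and releases calcium from internal stores. Group II (*Grm2* and *Grm3*) and group III (*Grm4*, *Grm6*, *Grm7* and *Grm8*) couple to Gi/o, lower cyclic AMP and, at many synapses, lower transmitter release from the presynaptic terminal. CR cells are early-born glutamatergic neurons that secrete reelin, and most of them die in the first postnatal weeks while some persist in the hippocampus.

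Barcodes with at least 2000 UMIs (unique molecular identifiers, each marking 1 captured RNA molecule) and at least 5 *Reln* UMIs were taken as cells, which gave 1003 control and 390 knockout cells with a median of 6224 and 6664 UMIs. No cell barcode was shared by the libraries. All 8 listed CR markers were detected in no less than 25% of cells in either library, with *Reln* in all of them by the choice of cells, while the 6 GABAergic markers summed to 2.88 CPM in control and 1.81 CPM in knockout cells. *Cic* was at 58.9 CPM in control and 51.3 CPM in knockout cells (ratio 0.871, 0.714 to 1.06), a 3′ count that does not check the deletion, while *Etv4* and *Etv5*, genes known to be repressed by CIC, were 36.0-fold (20.6 to 68.8) and 4.73-fold (3.69 to 6.08) higher in the knockout. Levels are UMIs summed over cells and scaled to 1000000 UMIs outside the mitochondrial (mt-) and the Rpl, Rps and Mrp genes (CPM). Ratios carry 95% exact intervals for 2 Poisson counts and shares carry 95% exact binomial (Clopper-Pearson) intervals, both covering counting error only.

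In the annotation of GRCm38 (GENCODE M21), *Grm2* (ENSMUSG00000023192) is the shortest of the 6 genes, on chromosome 9 from 106643095 to 106656082 on the minus strand. *Grm3* (ENSMUSG00000003974) spans 239630 bases of chromosome 5 from 9485541 to 9725170, and *Grm4* (ENSMUSG00000063239) 99017 bases of chromosome 17 from 27422387 to 27521403, both on the minus strand. *Grm5* (ENSMUSG00000049583) lies on chromosome 7 from 87584168 to 88134907 on the plus strand. *Grm7* (ENSMUSG00000056755) and *Grm8* (ENSMUSG00000024211) both lie on chromosome 6, *Grm7* from 110645581 to 111567230 on the plus strand and *Grm8* from 27275119 to 28135178 on the minus strand. Of the genes that overlap a member, *Gm28111*, antisense to *Grm2*, had 9 control and 3 knockout UMIs, and *Gm20387*, antisense to *Grm7*, had 0 in both libraries.

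The sequences before the starts of *Grm2* and *Grm8* are shown because, among the 4 members with at least 100 UMIs over both libraries, these receptors differed most, and in opposite directions, between cells with and without *Cck* (below). They were taken from RefSeq on GRCm38.p6, which held promoters of *Grm2*, *Grm3*, *Grm7* and *Grm8* and of *Grm6*, and each runs 5′ to 3′ on the minus strand, upstream of the gene in both RefSeq and GENCODE. The *Grm2* stretch is chr9:106656110-106656359 and the *Grm8* stretch is chr6:28135179-28135396. Of the 3 *Grm8* promoters listed, with 29, 8 and 2 CG pairs in the 250 bases before the start, the first is shown, cut to the 218 bases upstream in both annotations. Capitals mark CG pairs.
Grm2: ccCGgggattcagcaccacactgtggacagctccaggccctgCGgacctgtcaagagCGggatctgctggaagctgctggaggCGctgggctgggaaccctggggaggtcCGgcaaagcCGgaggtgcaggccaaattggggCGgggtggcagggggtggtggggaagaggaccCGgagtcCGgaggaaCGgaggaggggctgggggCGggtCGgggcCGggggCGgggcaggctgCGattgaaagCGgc
Grm8: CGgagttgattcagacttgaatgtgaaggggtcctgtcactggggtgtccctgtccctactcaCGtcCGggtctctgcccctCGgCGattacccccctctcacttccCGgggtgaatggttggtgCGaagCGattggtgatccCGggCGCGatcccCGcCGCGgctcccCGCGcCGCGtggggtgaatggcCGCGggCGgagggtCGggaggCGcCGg
The *Grm2* stretch holds 16 CG pairs in 250 bases and the *Grm8* stretch 24 in 218 bases, against a median of 6 (quartiles 2 and 16) in the 250 bases before the start in 32851 promoters. The octamers TGAATGAA, TGAATGGA, TCAATGAA and TCAATGGA, which CIC is known to bind, were searched on both strands of the 300-base promoters of the table. None was found in a promoter of the members that matched, and 3.84% of all promoters hold at least 1. This says only that these letters are not in these windows.

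Group II receptors summed to 96.5 CPM (89.1 to 104) in the control and 112 CPM (99.6 to 125) in the knockout. The group III receptors summed to 34.7 CPM (30.3 to 39.5) and 45.2 CPM (37.6 to 53.8). Across the 6 members, the level ran from 1.97 to 53.3 CPM in control and from 3.25 to 65.1 CPM in knockout cells.

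*Grm2*, a group II receptor of presynaptic terminals, had the highest level, with 352 UMIs in control cells (53.3 CPM, 47.9 to 59.2) and 180 in knockout cells (65.1 CPM, 55.9 to 75.3). A *Grm2* UMI was found in 22.6% (20.1 to 25.4) of control and 27.9% (23.6 to 32.7) of knockout cells. With each cell thinned to 2000 UMIs, these shares were 8.87% and 10.3%. *Grm3*, the other group II receptor, had 285 UMIs in the control (43.2 CPM, 38.3 to 48.5; 18.4% of cells) and 129 in the knockout (46.6 CPM, 38.9 to 55.4; 20.8% of cells). *Grm3* was below *Grm2* in both libraries by CPM, and their intervals overlapped at the edge in the control and not in the knockout. Divided by the length of the longest transcript, the order turned: *Grm3* was at 14.2 CPM per kb in control and 15.3 CPM per kb in knockout cells, and *Grm2* at 11.3 and 13.8 CPM per kb.

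*Grm7* and *Grm8*, group III receptors that are found at presynaptic active zones, came next at levels that did not differ beyond counting error. *Grm7* was at 16.2 CPM (13.3 to 19.6) in control and 20.6 CPM (15.6 to 26.7) in knockout cells, with a UMI in 8.57% and 10.5% of cells. *Grm8* was at 16.5 CPM (13.6 to 19.9) and 21.3 CPM (16.2 to 27.5), with a UMI in 5.88% and 8.46% of cells. *Grm8* reached a like level in fewer cells, but the intervals of the shares overlapped in both libraries, at the edge in the control (4.51 to 7.52 for *Grm8* and 6.92 to 10.5 for *Grm7*). At least 3 UMIs were found in 12 control cells for *Grm8* and 5 for *Grm7*, and in 5 and 4 knockout cells. *Grm8* had up to 8 UMIs in a control and 7 in a knockout cell.

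*Grm5* and *Grm4* were close to the limit of detection at this depth. *Grm5*, a group I receptor of many forebrain neurons, had 17 control and 13 knockout UMIs (2.58 and 4.70 CPM), and *Grm4*, a group III receptor, had 13 and 9 UMIs (1.97 and 3.25 CPM). A UMI of *Grm5* was found in 15 control and 12 knockout cells, and of *Grm4* in 13 and 7 cells. *Grm6*, a receptor known from retinal bipolar cells, had 0 UMIs in 1003 control and 390 knockout cells, which allows shares of cells with a UMI of up to 0.299% and 0.769% (3 counts of the total).

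In droplets without cells, taken as barcodes of 20 to 100 UMIs, *Grm2* was at 26.2 CPM (control) and 25.3 CPM (knockout), and *Grm3* at 27.5 CPM (21.0 to 35.5) and 35.5 CPM (29.2 to 42.9). The droplets of the libraries were not alike, with 29040 at a median of 89 UMIs in the control and 75813 at a median of 44 in the knockout. The ratios below are therefore read within each library. Cells exceeded droplets 2.04-fold (1.54 to 2.75) for *Grm2* and 1.57-fold (1.18 to 2.11) for *Grm3* in the control, and 2.57-fold (1.96 to 3.40) and 1.31-fold (1.01 to 1.71) in the knockout. *Grm7* and *Grm8* stood further above the droplets, by 5.89-fold (2.62 to 16.4) and 3.60-fold (1.88 to 7.71) in control cells and by 7.83-fold (3.72 to 19.0) and 4.63-fold (2.55 to 8.98) in knockout cells. The 8 listed CR markers summed to 14104.3 CPM in control and 13568.6 CPM in knockout cells. In droplets they summed to 5050 and 5447 CPM, so the droplets also held RNA of CR markers. Free RNA was subtracted as the mean count of a droplet from each cell. Cells had a median of 6224 (control) and 6664 UMIs (knockout), against 89 and 44 in droplets, so this could change the levels only a little. The levels of *Grm2* and *Grm3* stayed within the intervals of the reported values in both libraries, and rose slightly. How much of their UMIs in cells was free RNA, and the source of their UMIs in droplets, was not tested. *Grm3* is also a receptor of astrocytes, and the 8 listed astrocyte markers summed to 186 CPM in control and 175 CPM in knockout cells, against 258 and 408 CPM in droplets. Among them, *Slc1a2* had a UMI in 35.5% and 32.8% of cells, *Sox9* in 19.9% and 24.1% and *Apoe* in 3.99% and 11.3%, while *Aqp4*, *Gja1*, *Aldoc* and *Gfap* were at 0 to 2.27 CPM and *Slc1a3* at 5.15 and 2.89 CPM. Without the 10 control and 8 knockout cells that held 3 or more astrocyte markers, *Grm3* was at 43.0 and 47.1 CPM.

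**Figure D1:**
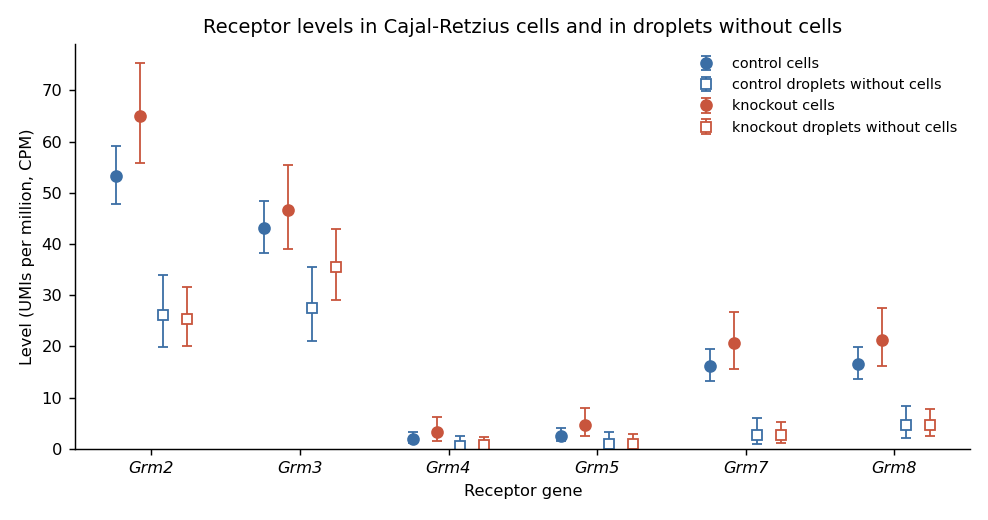
Level of each receptor gene in CPM (vertical axis, linear) in control and knockout cells (filled circles) and in droplets of 20 to 100 UMIs of the same libraries (open squares), with 95% exact Poisson intervals and 1 library per genotype. *Grm2* and *Grm3* are highest in cells and are also at 25.3 to 35.5 CPM in droplets, whereas *Grm7* and *Grm8* are at 16.2 to 21.3 CPM in cells and at most 4.61 CPM in droplets.

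Most cells had a UMI of at most 1 member. No member was found in 53.4% (50.3 to 56.6) of control and 47.2% (42.1 to 52.3) of knockout cells, 1 member in 35.5% and 36.2%, and 3 in 0.698% and 3.08%. In cells thinned to 2000 UMIs, no member was found in 80.0% of control and 76.4% of knockout cells. *Grm2* and *Grm3* were found together in 47 control and 28 knockout cells, where the product of their shares gives 41.9 and 22.6 cells. *Grm2* and *Grm8* were found together in 10 control and 6 knockout cells, where the product gives 13.3 and 9.22. The product takes all cells as equally deep. In thinned cells, *Grm2* and *Grm3* were together in 4 control and 3 knockout cells (product 7.01 and 3.08). *Grm2* and *Grm8* were together in 2 and 2 thinned cells (product 1.42 and 1.03). Neither pair kept its direction against the product. At 1 or a few UMIs per cell, most cells without a UMI of a member cannot be told apart from cells that express it at a low level.

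The genotypes were compared to ask how the receptors stood in cells of the knockout line, most but not all of which had lost CIC by the study's report. All 6 members were higher in the knockout library than in the control, by 1.08-fold to 1.83-fold, and none of the 4 with at least 100 UMIs over both libraries was past 1.5-fold, while 4.40% of the 9442 genes with that many UMIs were. *Grm2* was 1.22-fold (1.01 to 1.47) higher, the only member whose interval left out 1, and without the cell that held most of each member's UMIs it was 1.21-fold higher with an interval that includes 1. The ratio was 1.08 (0.871 to 1.34) for *Grm3*, 1.27 (0.905 to 1.77) for *Grm7* and 1.29 (0.925 to 1.79) for *Grm8*. *Grm4* (1.65, 0.623 to 4.18) and *Grm5* (1.83, 0.815 to 3.99) had intervals too wide to place them. The sum of the 6 members was 133.8 CPM in control and 161.6 CPM in knockout cells (1.21-fold, 1.08 to 1.36), where the median ratio of all genes compared was 1.004. Of those genes, 67.7% to 91.4% had a ratio at or below those of the 4 better-measured members. The ratio of the sum was 1.10 (0.944 to 1.29) in male cells and 1.38 (1.13 to 1.70) in female cells, whose control cells came from 1 mouse.

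The libraries differ in the sex of the pooled mice, and *Grm8* differed with the sex of the cell in 1 of them. By Y-linked genes and *Xist*, 702 control cells were male and 227 female, and 194 knockout cells were male and 176 female. In the control, *Grm8* had 99 UMIs in male cells (21.1 CPM, 17.1 to 25.7) and 5 in female cells (3.49 CPM, 1.13 to 8.13), a ratio of 6.05 (2.51 to 19.1), and 3.50% of 9436 genes were past 1.5-fold in that direction. In the knockout, *Grm8* was at 21.7 CPM in male and 20.4 CPM in female cells (ratio 1.06, 0.608 to 1.88). So the control female cells were low and the other 3 sets of cells were alike. The knockout-to-control ratio of *Grm8* was thus 5.85 (2.20 to 19.6) in female cells, where 13.1% of genes were past 1.5-fold in either direction, and 1.03 (0.664 to 1.55) in male cells, where 7.68% were. Both shares are of genes with at least 100 UMIs over all cells. In female cells *Grm8* had only 5 control and 25 knockout UMIs, and a share of genes at that depth was not taken. The female cells of the control came from 1 mouse, so the sex and the animal cannot be told apart.

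*Grm3* was at 47.1 CPM in male and 36.2 CPM in female control cells, and at 39.2 and 57.1 CPM in knockout cells. Its knockout-to-control ratio was 0.833 (0.610 to 1.12) in male and 1.58 (1.08 to 2.30) in female cells. *Grm2* was 1.29-fold (1.01 to 1.63) higher in the knockout in male and 1.05-fold (0.758 to 1.44) in female cells. *Grm7* was 1.19-fold (0.727 to 1.88) and 1.13-fold (0.648 to 1.97) higher.

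**Figure D2:**
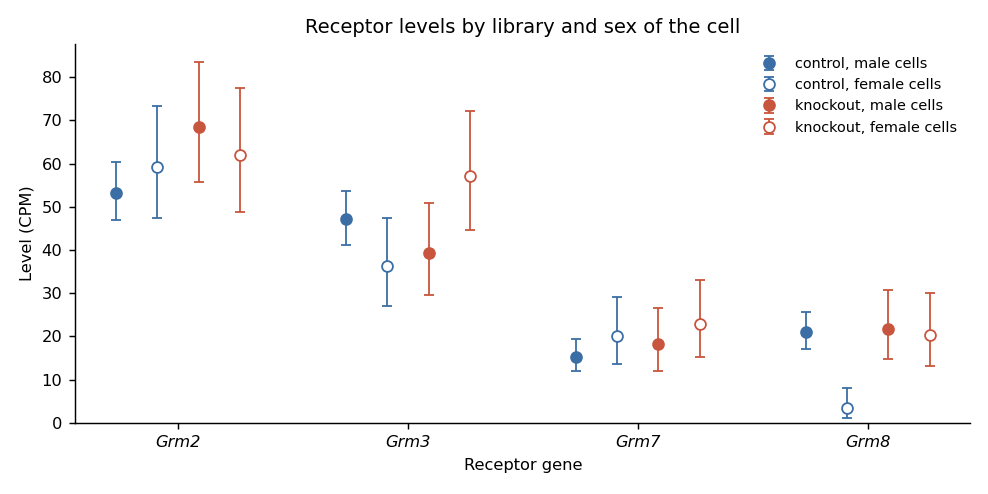
Level of *Grm2*, *Grm3*, *Grm7* and *Grm8* in CPM (vertical axis, linear) in male (filled) and female (open) cells of each library, with 95% exact Poisson intervals. For *Grm8*, the control female cells of 1 mouse are at 3.49 CPM and the other 3 sets of cells at 20.4 to 21.7 CPM.

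Cells were next divided by genes that mark kinds of CR cells: *Cck*, which encodes the neuropeptide cholecystokinin, *Grik1*, which encodes a kainate receptor subunit, and *Chst8* or *Alkal2*, which encode a carbohydrate sulfotransferase and a ligand of the receptors ALK and LTK. A cell was positive with at least 1 UMI, and the 4 genes themselves were left out of the scaling. *Cck* was found in 32.3% (29.4 to 35.3) of control and 28.2% (23.8 to 33.0) of knockout cells. Positive and negative cells had a median of 6397 and 6148 UMIs in control and 6788 and 6650 UMIs in knockout cells.

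*Grm2* was lower and *Grm7* and *Grm8* were higher in *Cck*-positive cells of both libraries. These 3 of the 4 members with at least 100 UMIs were past 1.5-fold in the same direction in both libraries, as were 2.66% of 9438 genes, 1.12% of them higher and 1.54% lower. *Grm2* was at 26.2 CPM in *Cck*-positive and 67.7 CPM in *Cck*-negative control cells (ratio 0.388, 0.289 to 0.513), and at 23.9 and 81.7 CPM in knockout cells (0.292, 0.172 to 0.472). The share of cells with a *Grm2* UMI was 13.6% in positive cells of either library, against 27.0% of negative control and 33.6% of negative knockout cells. *Grm8* was at 29.3 CPM in positive and 9.74 CPM in negative control cells (3.01, 2.02 to 4.54), and at 34.0 and 16.2 CPM in knockout cells (2.09, 1.21 to 3.60). Of the 27 *Grm8* UMIs in *Cck*-positive knockout cells, 15 lay in 5 cells that also held *Grik1*, *Chst8* or *Alkal2*, with up to 7 in a cell. In the control this held for 5 of 67 UMIs. A *Grm8* UMI was found in 9.57% of positive and 4.12% of negative control cells, and in 13.6% and 6.43% of knockout cells. *Grm7* was at 23.2 CPM in positive and 12.5 CPM in negative control cells (1.85, 1.24 to 2.76), and at 28.9 and 17.3 CPM in knockout cells (1.68, 0.943 to 2.93), where the interval includes 1. With each cell thinned to 2000 UMIs, the knockout ratio of *Grm7* was 1.115, short of 1.5-fold.

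*Grm3* did not share a direction between the libraries. It was at 36.3 CPM in *Cck*-positive and 46.8 CPM in *Cck*-negative control cells (0.775, 0.593 to 1.00), and at 57.9 and 42.1 CPM in knockout cells (1.37, 0.936 to 1.99). A knockout cell with 11 *Grm3* UMIs took part in this, and without the cell that held most of each member's UMIs the knockout ratio was 1.07 (0.700 to 1.62). In the same setting, the control ratio moved further below 1, with an interval that left out 1. The libraries thus still differed in direction there. *Grm4* and *Grm5* had at most 10 UMIs in any of these sets of cells, and every interval of their ratios included 1.

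**Figure D3:**
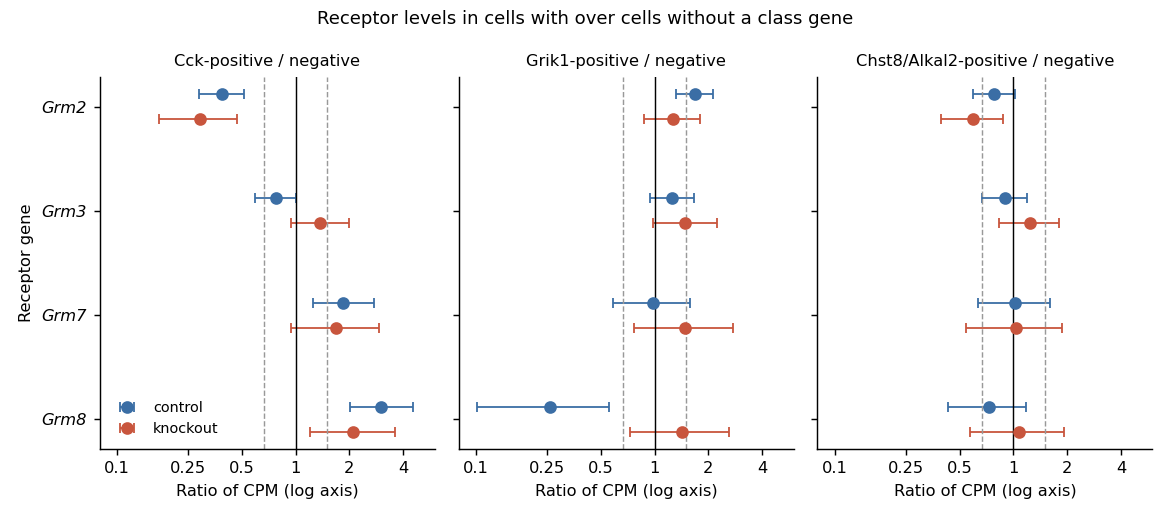
Ratio of CPM in cells with over cells without a UMI of each class gene (horizontal axis, log scale) for *Grm2*, *Grm3*, *Grm7* and *Grm8* in each library, with 95% exact intervals for 2 Poisson counts. Dashed lines mark 1.5-fold in either direction, which for *Cck* both libraries pass for *Grm2* (0.388 and 0.292), *Grm7* (1.85 and 1.68) and *Grm8* (3.01 and 2.09).

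*Grik1* was found in 194 control and 70 knockout cells, and no member was past 1.5-fold in the same direction in both libraries (2.47% of genes were). *Grm2* was at 78.4 CPM in *Grik1*-positive and 46.7 CPM in negative control cells (1.68, 1.33 to 2.11), and at 78.3 and 61.9 CPM in knockout cells (1.27, 0.874 to 1.80). *Grm3* was at 51.6 and 41.0 CPM in the control (1.26, 0.948 to 1.65) and at 63.4 and 42.6 CPM in the knockout (1.49, 0.975 to 2.22). *Grm8* was lower in *Grik1*-positive control cells, at 5.08 against 19.5 CPM (0.260, 0.102 to 0.556), and at 28.0 against 19.7 CPM in the knockout (1.42, 0.733 to 2.60). The 15 *Grm8* UMIs of *Grik1*-positive knockout cells lay in 5 cells, and 13 of them lay in 3 cells that also held another class gene. The knockout ratio of *Grm8* was 0.198 (0.00490 to 1.16) with positivity at 2 UMIs, where cells with exactly 1 *Grik1* UMI were left out. Without the cells rich in respiratory chain genes that are described below, it was 0.788 (0.319 to 1.70). In thinned cells it was 3.89, so its direction depended on the setting. *Grm7* was at 0.982 (0.585 to 1.58) of its level in negative cells in control and 1.49 (0.765 to 2.73) in knockout cells.

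*Chst8* or *Alkal2* was found in 232 control and 91 knockout cells, which in the knockout were deeper than the negative cells (median 7869 against 6361 UMIs). No member was past 1.5-fold in the same direction in both libraries, and 2.72% of genes were. *Grm2* was at 44.1 against 56.4 CPM in the control (0.782, 0.595 to 1.02) and at 43.5 against 73.3 CPM in the knockout (0.594, 0.394 to 0.871). The ratios of *Grm3* (0.898 and 1.23), *Grm7* (1.03 and 1.03) and *Grm8* (0.725 and 1.07) in the control and the knockout had intervals that included 1.

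Levels were also taken in cells with UMIs of only 1 of the classes. *Grm2* was at 26.4 CPM (18.7 to 36.3) in the 215 control cells with *Cck* alone and at 105 CPM (84.5 to 129) in the 130 with *Grik1* alone, and at 28.6 CPM (15.6 to 48.0) and 103 CPM (70.0 to 146) in the 72 and 43 such knockout cells. *Grm8* went the other way in the control, from 43.1 CPM (33.1 to 55.3) with *Cck* alone to 3.46 CPM (0.714 to 10.1) with *Grik1* alone, the latter from 3 UMIs. In the knockout, *Grm8* was at 24.5 CPM (12.7 to 42.8) and 6.64 CPM (0.805 to 24.0), the latter from 2 UMIs, with intervals that overlap. With *Chst8* or *Alkal2* alone, *Grm8* was at 31.6 CPM (16.8 to 54.1) in the knockout and 15.7 CPM (8.79 to 25.9) in the control. With none of the class genes it was at 14.2 CPM (8.10 to 23.0) and 9.72 CPM (6.16 to 14.6). In the knockout, *Grm8* had 13 UMIs with *Chst8* or *Alkal2* alone and 12 with *Cck* alone, with intervals that overlap. A *Grm8* UMI was found in 13.7% and 13.9% of these cells, so the order of these sets is not settled. *Grm7* was at 27.1 CPM (19.3 to 37.1) with *Cck* alone and 11.5 CPM (5.53 to 21.2) with *Grik1* alone in the control, and at 36.8 and 23.3 CPM in the knockout. *Grm3* was at 35.5 and 62.3 CPM in these control cells and at 63.3 and 63.1 CPM in the knockout. Cells with none of the class genes, 387 of the control and 173 of the knockout, had *Grm2* at 60.8 CPM (51.3 to 71.6) and 90.4 CPM (73.7 to 110). In each other set, the *Grm2* intervals of the libraries overlapped. A share of all genes was not taken for these sets, and the difference was not tested. In cells with more than 1 class, *Grm8* was at 6.16 CPM (2.26 to 13.4) in 126 control and 36.8 CPM (21.0 to 59.7) in 51 knockout cells, the latter from 16 UMIs in 6 cells.

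**Figure D4:**
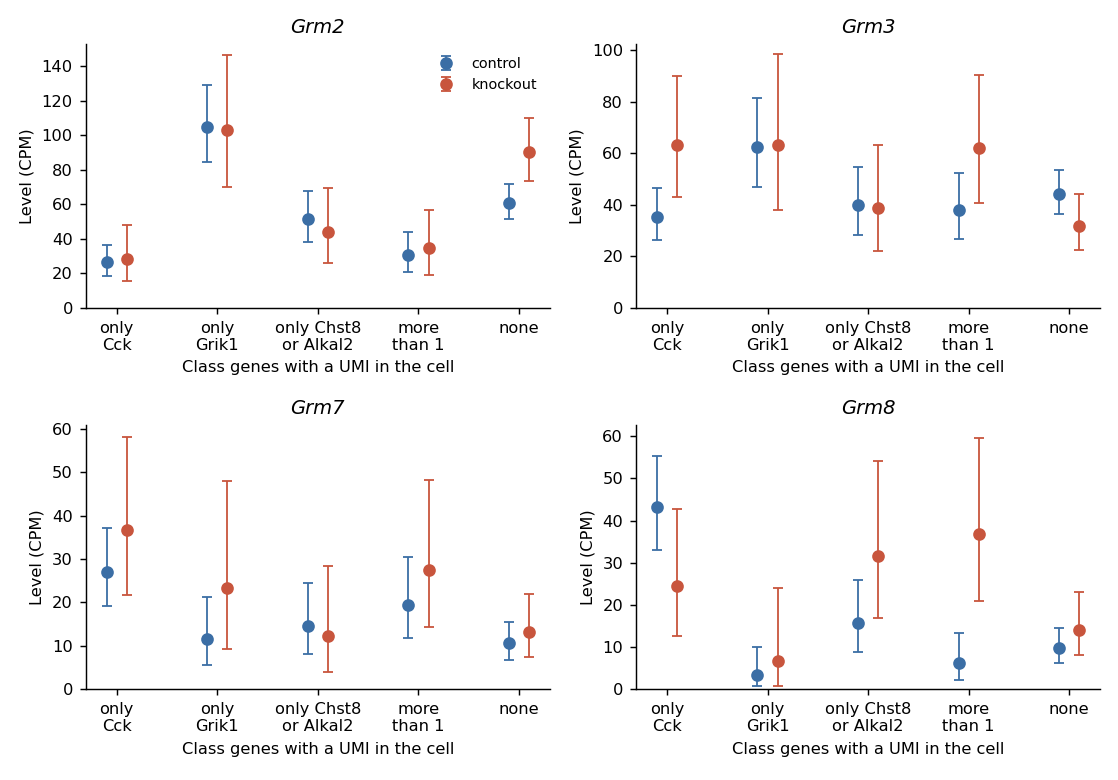
Level in CPM (vertical axes, linear, each from 0) of *Grm2*, *Grm3*, *Grm7* and *Grm8* in cells with UMIs of only *Cck*, only *Grik1*, only *Chst8* or *Alkal2*, more than 1 of these, or none, in each library, with 95% exact Poisson intervals. *Grm2* is at 103 to 105 CPM with *Grik1* alone and 26.4 to 28.6 CPM with *Cck* alone, and *Grm8* is at 3.46 to 6.64 CPM and 24.5 to 43.1 CPM in the same sets. In the knockout, *Grm8* is at 31.6 CPM with *Chst8* or *Alkal2* alone and 24.5 CPM with *Cck* alone, from 13 and 12 UMIs, with intervals that overlap.

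Over these 10 sets of cells (5 in each library), the genes whose log2(CPM + 10) ran most like that of *Grm2* were *Lrrtm3* (Pearson r = 0.958), *Tsn* (0.949) and *Gm48765* (0.941), out of 5562 genes with at least 300 UMIs. *Lrrtm3*, which encodes a synaptic adhesion protein, ran from 12.5 to 85.4 CPM in the control sets and from 23.0 to 89.7 CPM in the knockout sets. For *Grm3* they were *Cdc16* (0.924), *Hook1* (0.870) and *Zfp386* (0.867). These are the highest of many correlations over sets that share 2 libraries, and they are descriptions. No other member had 300 UMIs.

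Of the cells, 65 control and 24 knockout cells were rich in nuclear genes of the respiratory chain (at least 2% of their UMIs) and deeper than the rest, with a median of 13609 and 14230 UMIs. Within 0.25 percentage points of that limit lay 30 control and 10 knockout cells. *Grm3* was low in them, at 14.4 CPM against 46.9 CPM in other control cells (0.307, 0.151 to 0.557) and 13.3 against 50.7 CPM in the knockout (0.263, 0.0705 to 0.690). These low values came from 11 UMIs in 7 control cells and 4 UMIs in 3 knockout cells. A share of all genes was not taken for this split. *Grm2* was at 39.3 against 55.2 CPM in the control (0.712, 0.472 to 1.04) and 76.6 against 63.7 CPM in the knockout (1.20, 0.741 to 1.87). *Grm8* was at 2.62 against 18.3 CPM in the control, from 2 UMIs, and at 33.3 against 19.9 CPM in the knockout, from 10 UMIs in 3 cells. *Grm7* was at 7.85 against 17.3 CPM in the control (0.454, 0.163 to 1.02) and at 3.33 against 22.7 CPM in the knockout (0.147, 0.00365 to 0.851), where the rich cells held 1 UMI.

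The partners of the receptors were measured in 4 lists: the Gq side, the Gi/o side, scaffolds and synaptic partners, and desensitisation, with 67 genes in the table and 52 with at least 100 UMIs. In the knockout against the control, 2 of the 52 were higher and 1 was lower past 1.5-fold, where 2.73% and 1.66% of all genes were. On the Gq side, 1 of 10 genes was past it: *Prkca*, a protein kinase C, was at 19.8 CPM in control and 31.8 CPM in knockout cells (1.60, 1.21 to 2.12). The most abundant of this list, the phospholipase *Plcb1*, was at 1415 and 1470 CPM and was found in 97.1% and 97.7% of cells, followed by the kinase *Prkcb* at 320.5 and 339.8 CPM. On the Gi/o side, none of 15 was past it, and the adenylyl cyclase *Adcy8* (589 and 616 CPM) and the G protein subunit *Gnao1* (363 and 347 CPM) were highest. Of 15 scaffolds and synaptic partners, *Frmpd4*, which encodes a postsynaptic scaffold protein, was at 47.3 CPM in control and 28.6 CPM in knockout cells (0.604, 0.466 to 0.776), and *Homer2* (197 and 182 CPM) and *Grip1* (179 and 181 CPM) were highest. Among 12 genes of desensitisation, *Rgs2*, a regulator of G protein signalling, was at 10.2 and 18.8 CPM (1.85, 1.26 to 2.70), and *Rgs4* (153 and 145 CPM) and *Rgs7* (152 and 138 CPM) were highest. The median ratio of the lists, in this order, was 1.03, 0.997, 0.987 and 1.07.

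Between *Cck*-positive and *Cck*-negative cells, 2 of the 52 partners were past 1.5-fold in the same direction in both libraries, against 2.66% of all genes, and both were lower. The cation channel *Trpc5* was at 0.253 of its level in negative cells in control and 0.148 in knockout cells. The glutamate transporter *Slc1a2* was at 0.591 and 0.554.

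**Figure D5:**
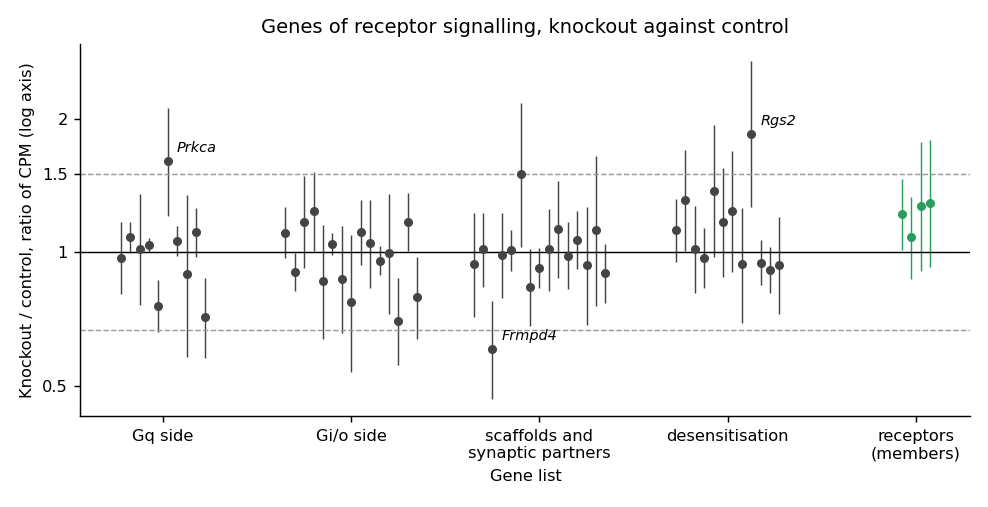
Ratio of knockout to control CPM (vertical axis, log scale) for each listed partner gene with at least 100 UMIs over both libraries and for *Grm2*, *Grm3*, *Grm7* and *Grm8*, with 95% exact intervals for 2 Poisson counts and dashed lines at 1.5-fold. *Prkca* (1.60) and *Rgs2* (1.85) lie above and *Frmpd4* (0.604) below the lines, and the 4 receptors lie between 1.08 and 1.29.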

How the data were processed

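Hippocampal CR cells of 4 pooled mice per genotype were profiled by single-cell RNA-sequencing, as 1 library each. The authors deposited raw UMI counts of each gene for every barcode, before normalization or cell calling. The matrices held 16336796 (control) and 6777071 (knockout) UMIs over all barcodes. The study's methods, the header of the matrices and the submitters' processing notes (Cell Ranger 8.0.1, mm39) disagree on the version of Cell Ranger and the reference. Whether intronic reads were counted is not given in the sources used here, and overlapping genes are uncertain.

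The members, gene lists, classes and alternatives were chosen with earlier results of these data known. Barcodes with at least 2000 UMIs and 5 *Reln* UMIs were kept (1003 and 390). Of the others with at least 2000 UMIs, 8 control and 16 knockout barcodes had fewer *Reln* UMIs. Doublets were kept and their removal was an alternative. UMIs were summed over cells in Python 3.11.15 with numpy 2.4.6, pandas 2.3.3 and scipy 1.17.1, and Scrublet scores came from scanpy 1.11.5. Past the fold meant a ratio of at least 1.5 or at most 1/1.5 in a gene with at least 100 UMIs over both libraries. A male cell had a UMI of *Uty*, *Ddx3y*, *Eif2s3y* or *Kdm5d* and none of *Xist*, and a female cell the reverse. Thinning drew 2000 UMIs from each cell once (seed 1). No cell was shallower.

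All members and *Grm6* are named whatever their values. A further listed gene is not reported here. Partners are named when past the fold or among the 2 highest of their list, and *Cck* partners when past it in both libraries. Of 71 listed symbols, *Tamalin*, *Preso1*, *Adrbk1* and *Adrbk2* are not in the table under these names. *Etv4* and *Etv5* were chosen after their values were seen. Gene positions were matched by Ensembl identifier to GENCODE M21 on GRCm38 (32235 of 32285 found). The ratio intervals, the fold and the thinning were tested on simulated counts, and the other steps were not. The simulated counts for the intervals were Poisson counts, so UMIs clumped in a few cells were not simulated.

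Lists of markers of other cell types checked the cells. Those of granule neurons (342 CPM in control and 324 CPM in knockout cells), pyramidal neurons (66.9 and 75.9), oligodendrocyte precursors (70.4 and 93.6), oligodendrocytes (16.1 and 21.7), microglia (36.8 and 32.2), endothelial (33.9 and 29.3), mural (81.9 and 75.9), ependymal or choroid cells (4.09 and 5.06), fibroblasts (8.79 and 16.6) and erythrocytes (0.454 and 0.723) had at most 1 gene of a list with a UMI in at least 25% of cells. The genes past that share were *Dock10* of granule neurons, in 70.0% of control and 68.5% of knockout cells, *Cspg4* of precursors (30.3% and 37.95%) and *Rgs5* of mural cells (31.8% and 30.3%).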

Additional observations from a re-analysis of the deposited data

Results flagged for a closer look

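For the 4 members with at least 100 UMIs over both libraries, splits of the cells that gave opposite directions in the libraries, and genotype ratios that differed between the sexes in direction or beyond their intervals, are given here. None of these differences was tested, since each side is 1 library or 1 set of cells in it. *Grm3* in cells with over cells without a *Cck* UMI was at 0.775 in control and 1.37 in knockout cells. *Grm7* in cells with over cells without a *Grik1* UMI was at 0.982 and 1.49, and *Grm8* at 0.260 and 1.42, the latter with 13 of its 15 UMIs in 3 cells that held another class gene. The knockout ratio of *Grm8* was 0.198 with positivity at 2 UMIs and 3.89 in thinned cells. In cells with over cells without *Chst8* or *Alkal2*, *Grm3* was at 0.898 and 1.23 and *Grm8* at 0.725 and 1.07. The knockout-to-control ratio of *Grm3* was 0.833 in male and 1.58 in female cells. That of *Grm8* was 1.03 in male and 5.85 in female cells, the latter from 5 UMIs in 227 control and 25 UMIs in 176 knockout cells. In cells rich in respiratory chain genes over other cells, *Grm2* was at 0.712 in control and 1.20 in knockout cells, and *Grm8* at 0.143 and 1.68.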

How the results depend on the processing

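With 4 pooled mice in 1 library per genotype, replicates could not be left out, and depth limits *Grm4* and *Grm5* most. No paired analysis was possible because each genotype has 1 library, and no result comes from a test. Under 12 of the alternatives (other UMI or *Reln* minimums, quality limits, doublets, respiratory-rich cells, scaling to all UMIs, equal weight of cells, free RNA, astrocyte markers and, added after seeing the data, leaving out the cell with most UMIs of each member) each of the 71 values stayed within the interval of the reported value or, for counts of members, kept its number. Several of these alternatives changed the data little, so their agreement was largely set in advance. The UMI and *Reln* minimums kept 984 to 1049 control and 387 to 397 knockout cells. Leaving out doublets removed 8 and 1 cells, and the free RNA subtracted was small. Among settings that changed the data more, 36 values moved in thinned cells and 27 in female cells. In male cells 7 moved, apart from the *Cck* count given below. No ratio whose interval left out 1 changed direction under any alternative.

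Thinned cells and female cells held at least 100 UMIs of only *Grm2* and *Grm3*. In male cells alone (*Grm7* under 100 UMIs) and with a fold of 2, the *Cck* count was 2 in place of 3, for *Grm2* and *Grm8*. In thinned and in female cells it was 1 (*Grm2*), as it was with a minimum of 200 UMIs per gene. Apart from the minimum, the *Cck* ratio of *Grm7* was 4.28 in control and 1.115 in knockout thinned cells, and 1.37 in control female cells. That of *Grm8* was 6.15 and 3.02 in thinned cells. The *Grik1* count went from 0 to 2 in thinned cells (*Grm2* and *Grm3*), to 2 with positivity at 2 UMIs (*Grm3* and *Grm8*) and to 1 in female cells (*Grm3*). The *Chst8* or *Alkal2* count went from 0 to 1 (*Grm2*) in thinned cells and with positivity at 2 UMIs. Between the genotypes, female cells gave 1 member past the fold (*Grm3*) and a summed ratio of 1.38, against 1.10 in male cells. Divided by transcript length, *Grm2* and *Grm3*, *Grm7* and *Grm8*, and *Grm4* and *Grm5* each exchanged places in the order of levels in both libraries. These exchanges come from the lengths alone, and UMIs counted from the 3′ end call for no such division.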

Other observations

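Among the barcodes with at least 2000 UMIs but fewer than 5 *Reln* UMIs, *Grm7* had 14 UMIs in 3 of 16 knockout barcodes and none in 8 control barcodes, and *Grm3* had 7 UMIs in 1 knockout barcode. These barcodes entered no comparison.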
